A study of Pseudotsuga menziesii with 10 samples.

Results

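The transcripts described here are 59 of the 54889 assembled transcripts (contigs) measured in developing Douglas-fir (Pseudotsuga menziesii) seeds and cones, which were abundant in the megagametophyte on 10 June, nearly gone by 6 July, and above a low minimum in cone tissue. They were selected on their measured levels. Both 10 June libraries had to reach 100 FPKM, both 22 June libraries 10 FPKM, neither 6 July library 1 FPKM, and cone scales, cone bracts or both 1 FPKM. FPKM is the number of sequenced fragments per length of contig and per size of library. Since these levels chose the contigs, they are given as descriptions, without a test. The rule set the same limits for both pollination states, so only the difference between the states was fitted, across all contigs.

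Megagametophytes were dissected on 10, 22 and 30 June and 6 July 2011 from cones of a single genotype clone grown in a seed orchard. All cones had been bagged to keep pollen out, and those of the pollinated state were then given a mix of pollen from 6 genotypes. Every date and state gave 1 library, 8 in all, from a pool of 200 to 400 megagametophytes, and whole cone scales and cone bracts of the same clone, taken on 26 May, are 1 library per tissue. The states are called with pollen and without pollen where pairs of values are given, always in that order. The pollinated samples are labelled as megagametophyte with embryo at every date, and whether the ovules borne on the whole scales had been removed is not given in the sources used here. Since every group is 1 library, a difference between 2 libraries has no replicate check. No file links a contig to a gene name, so the tissues could not be checked against marker genes, the contigs are named by identifier, and the roles of their products are not described. In pooled tissue, fewer cells of a type and less RNA per cell cannot be told apart.

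The megagametophyte is the haploid female gametophyte of a conifer, which carries the egg cells, surrounds the growing embryo and stores the reserves that the seedling later uses. Per the labels, the dates matched the opening of the corrosion cavity, a space that the embryo later fills, then fertilization, then embryogenesis or, in ovules that got no pollen, the first stages of abortion. A cone scale is the diploid organ that bears the ovules, and the bract is the leaf-like organ beneath it.

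The presence of these contigs in cone tissue was slight. The higher of the scale and bract levels lay between 1 and 2.34 FPKM in 56 of the 59 contigs, and the median over all 59 was 1.23 FPKM. Set against the mean of both 10 June libraries, this cone level was 0.0846% at the lowest, 0.300% at the median and 12.7% at the highest. The bract level of 53 contigs and the scale level of 46 lay below the median of all 54889 contigs in the same library, which was 1.73 FPKM in bracts and 1.04 FPKM in scales.

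The minimum of 1 FPKM cut through a continuous range of bract levels. Of the 221 contigs that met the rule on dates, 94 stood from 0.5 to under 1 FPKM in bracts and 40 from 1 to under 1.5 FPKM. Besides the 59 members, the 221 hold 162 contigs, all under 1 FPKM in both cone tissues. The bract library held few contigs at the lowest levels, with 72.2% of all contigs at 1 FPKM or more against 51.1% in scales and 41.3% to 53.3% in the megagametophyte libraries. When all 10 libraries were given a common distribution by quantile normalization, 11 of the 59 contigs still reached 1 FPKM in a cone tissue and 7 met the whole rule. The working description of the group as contigs also present in cone tissue therefore rests, for most members, on levels close to the minimum in a single library.

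**Figure D1:**
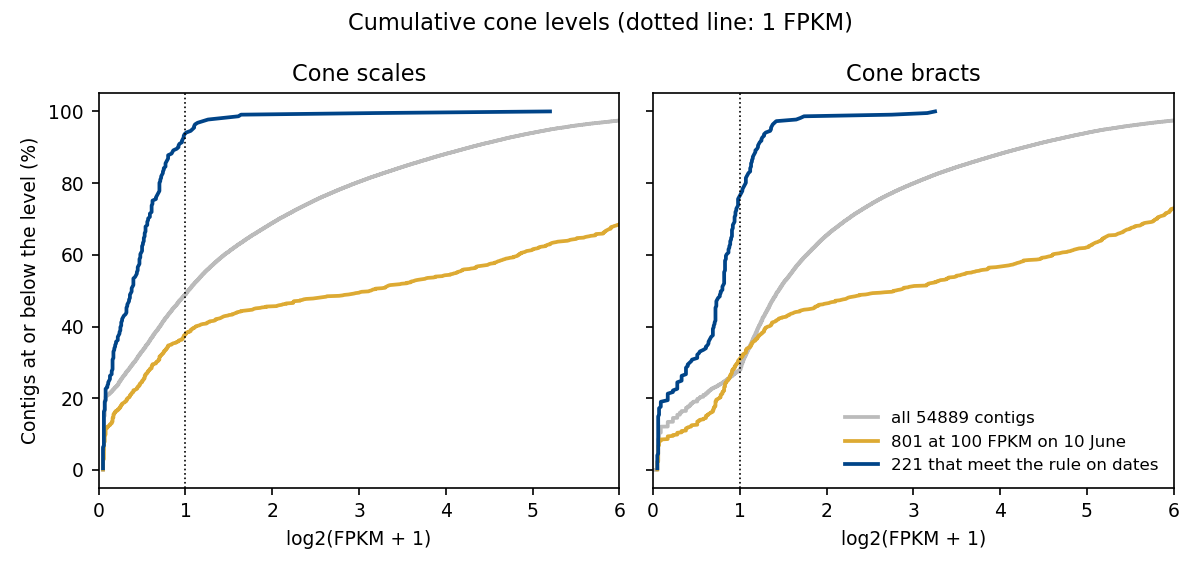
Cumulative share of contigs (%) at or below each level, log2(FPKM + 1), in cone scales and cone bracts, for all 54889 contigs, the 801 that reached 100 FPKM in both 10 June libraries, and the 221 that met the rule on dates. The curve of the 221 crosses the dotted line at 1 FPKM with 14 contigs at or above it in scales and 53 in bracts. At that line 93.7% of the 221 lie below in scales and 76.0% in bracts, against 48.9% and 27.8% of all contigs.

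The values just inside and just outside each threshold were close. The nearest contigs stood at 105.2 FPKM inside and 93.4 FPKM outside for the lower 10 June library, and at 11.7 and 8.71 FPKM for the lower 22 June library. For the higher 6 July library they stood at 0.959 FPKM inside and 1.03 FPKM outside, and for the higher cone level at 1 and 0.986 FPKM.

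Only 3 of the 59 contigs stood above 5 FPKM in a cone tissue. GAZW02018523 had the highest cone level, with 35.8 FPKM in scales against 8.51 FPKM in bracts. With pollen it stood at 309.8, 134.3, 0.919 and 0.919 FPKM on the 4 dates in order, and without pollen at 253.2, 55.1, 3.14 and 0.516 FPKM. Its level in scales thus lay above its 30 June and 6 July levels in both pollination states, and below its 10 and 22 June levels.

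GAZW02010158 was the second, with 8.13 FPKM in scales against 5.73 FPKM in bracts. It was among the least abundant members on 10 June, at 105.2 FPKM with pollen and 116.8 FPKM without, and stood at 26.5 and 12 FPKM on 22 June. On 30 June it stood at 0.591 and 1.08 FPKM, and on 6 July at 0.320 and 0.495 FPKM. GAZW02065753 was the third, with 7.94 FPKM in bracts against 0.705 FPKM in scales. It stood at 483.4 FPKM with pollen and 571.1 FPKM without on 10 June, at 181.3 and 100.1 FPKM on 22 June, at 0.729 and 1.45 FPKM on 30 June, and at 0.0425 FPKM in both states on 6 July. In its case the bract level exceeded both 30 June levels, as did the scale level for the other two.

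The scale library was set against the bract library, without a test. At 1 FPKM or more, 45 contigs were found in bracts only, 6 in scales only and 8 in both. The median in scales was 0.414 FPKM against 1.22 FPKM in bracts, and 47 of 59 contigs were higher in bracts. A gap of 2-fold or more on the log2(FPKM + 1) scale, the higher value being 1 FPKM or more, was found for 1 contig on the side of scales and 11 on the side of bracts. These are 1.69% and 18.6% of the 59, against 7.76% and 21.5% of the 42923 contigs that reached 1 FPKM in either tissue, and 6.42% and 5.21% of the 576 among the 801 contigs at 100 FPKM or more in both 10 June libraries. The 47 contigs higher in bracts are 79.7% of the 59, against 64.9% of all contigs and 44.7% of the 801. The median difference of scales minus bracts was -0.67 log2 units in the 59, -0.23 in all contigs and 0.03 in the 801. A bract level of 1 FPKM was a way into the group, and nothing is read from these shares.

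**Figure D2:**
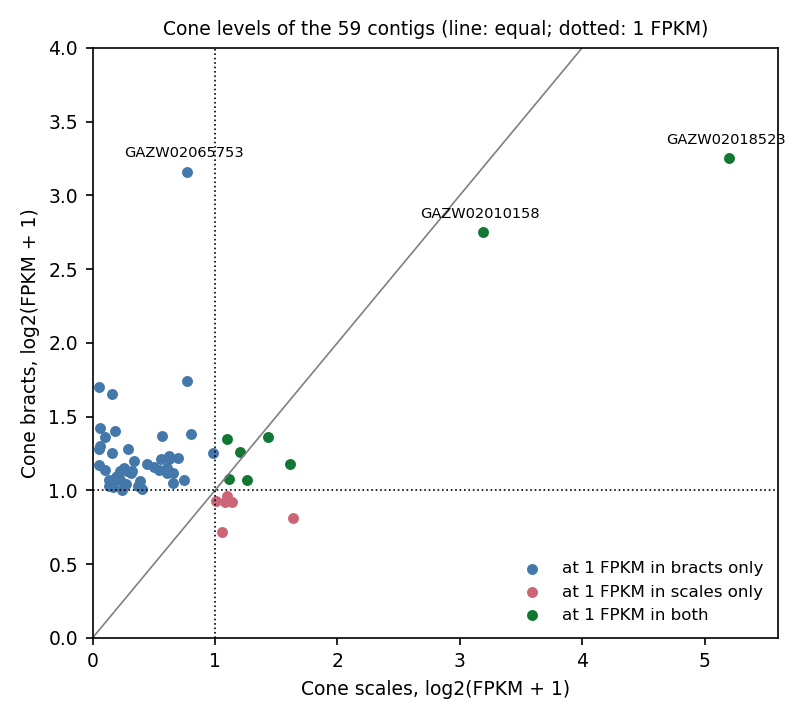
Level in cone bracts against level in cone scales, both log2(FPKM + 1), for the 59 contigs, coloured by the tissue in which they reached 1 FPKM. The 3 contigs named in the plot stand above 5 FPKM in a tissue, and the other 56 lie between 1 and 2.34 FPKM in their higher tissue.

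The contigs with the widest gaps toward scales were GAZW02018523 and GAZW02021425, the latter with 2.12 FPKM in scales against 0.753 FPKM in bracts. GAZW02021425 missed the 2-fold limit with a difference of 0.83 log2 units. Toward bracts the widest gaps were those of GAZW02065753 and GAZW02079727, the latter with 2.25 FPKM in bracts against 0.0353 FPKM in scales. GAZW02079727 stood at 366.1 FPKM with pollen and 384.3 FPKM without on 10 June, at 165.6 and 112.0 FPKM on 22 June, at 3.08 and 3.38 FPKM on 30 June, and finally at 0.815 and 0.0425 FPKM on 6 July. It was one of the few members that hardly differed between the states on 30 June. The counts moved with the scale. After quantile normalization 11 contigs reached 1 FPKM, and 3 of the 11 (27.3%) were 2-fold higher on each side, against 14.3% of all contigs toward scales and 15.3% toward bracts. With a pseudocount of 0.1 FPKM in place of 1, 2 contigs (3.39%) were higher in scales and 40 (67.8%) in bracts, against 10.6% and 35.5% of all contigs.

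Over the dates the share of the 59 contigs in the megagametophyte transcripts shrank, as the rule requires. Together they made up 5.95% of all FPKM with pollen and 6.32% without on 10 June. On 22 June the shares were 3.84% and 2.44%, on 30 June 0.0114% and 0.0890%, and by 6 July 0.00302% and 0.00551%. In scales and bracts they made up 0.0154% and 0.0185%.

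Levels on 10 June ran from 105.2 to 1697 FPKM in pollinated megagametophytes, with a median of 412.0 FPKM, and from 105.9 to 2895 FPKM in unpollinated ones, with a median of 447.8 FPKM. On 22 June the medians were 242.9 FPKM with pollen and 134.3 FPKM without. The rule left 30 June free, and the medians there were 0.670 FPKM with pollen and 4.46 FPKM without. On 6 July they were 0.197 and 0.444 FPKM.

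By the median, the widest step was between 22 and 30 June in both pollination states. In pollinated megagametophytes the 30 June level was lower by 4.11 to 9.37 log2 units, with a median of 7.34, and 44 of 59 contigs were then under 1 FPKM. In unpollinated megagametophytes it was lower by 2.64 to 7.26 log2 units, with a median of 4.43, and 6 contigs were under 1 FPKM. The shares under 1 FPKM, pollinated first, were 74.6% and 10.2% of the 59 and 52.4% and 57.8% of all contigs. They were 30.3% and 10.9% of the 801, and 90.7% and 23.5% of the 162. From 22 to 30 June the step was wider in the pollinated libraries for 59 of 59 contigs, a count made in the 59 only. In the 801 contigs at 100 FPKM or more on 10 June, the medians were 1.67 log2 units pollinated and 0.89 unpollinated. They were 6.78 and 4.52 in the 162 contigs under 1 FPKM in cone tissue. In all contigs they were -0.09 and 0, a negative value being a higher 30 June level. The step from 10 to 22 June had medians in the 59 of 0.68 log2 units in pollinated and 1.54 in unpollinated megagametophytes. It was wider in the unpollinated libraries for 57 of 59, again counted in the 59 only. Its medians were 0.37 and 0.81 in the 801, 0.46 and 1.09 in the 162, and 0.01 and 0.04 in all contigs. From 30 June to 6 July the medians in the 59 were 0.43 and 2.11 log2 units. The order of the libraries was thus reversed between the first and the second interval, with 1 pair of libraries behind each date. Both steps contain the 22 June pair. A higher pollinated level on that date alone makes the first step narrower and the second wider, so nothing is read from the reversal.

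**Figure D3:**
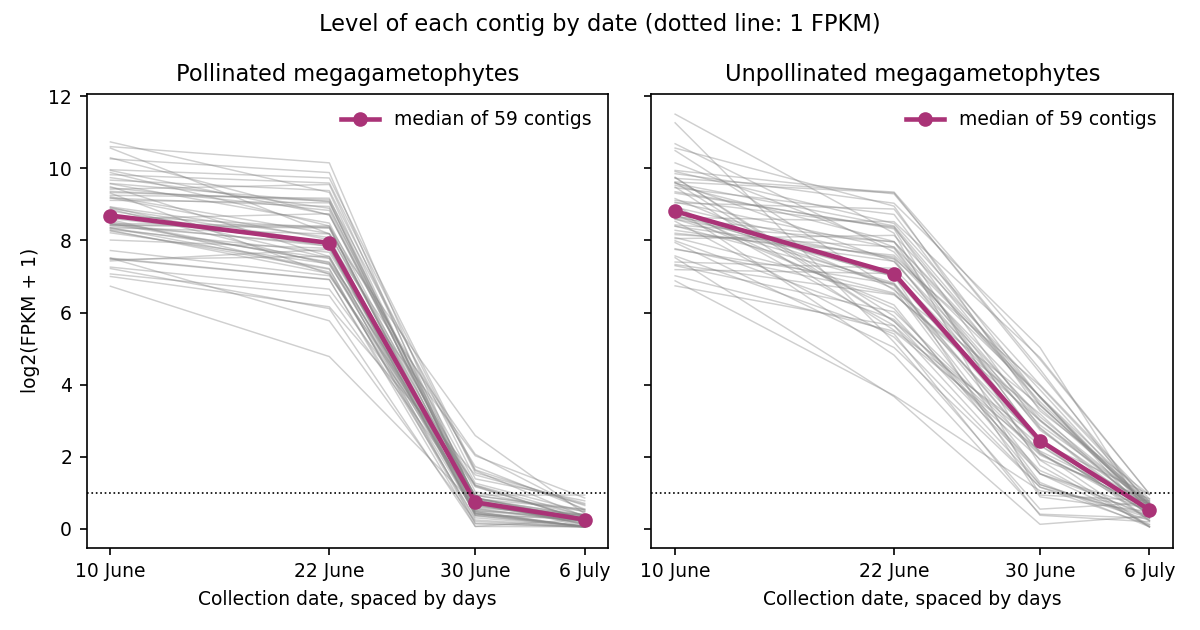
Level, log2(FPKM + 1), of each of the 59 contigs (grey lines) and their median (points and thick line) in pollinated and unpollinated megagametophytes against collection date, spaced by days. The median stands at 0.74 in pollinated and 2.45 in unpollinated megagametophytes on 30 June, the date that the rule did not use.

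By the mean of both libraries, the most abundant members on 10 June were GAZW02012967 and GAZW02069508. GAZW02069508 stood at 1509 FPKM with pollen and 2451 FPKM without on 10 June, at 289.0 and 35.3 FPKM on 22 June, at 0.905 and 0.464 FPKM on 30 June, and finally at 0.454 and 0.659 FPKM on 6 July. Its level in bracts was 1.68 FPKM and in scales 0.0425 FPKM. The unpollinated library of 22 June held it at a level 6.08 log2 units lower than that of 10 June, the widest early step of any member. GAZW02012967, with 2.14 FPKM in bracts against 0.117 FPKM in scales, stood at 642.6 FPKM with pollen and 293.1 FPKM without on 22 June, and at 0.537 and 0.919 FPKM on 30 June. Both contigs were thus under 1 FPKM in both states by 30 June.

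By the mean of both libraries, GAZW02019494 and GAZW02016077 had the highest levels left on 30 June. GAZW02019494 stood at 591.2 FPKM with pollen and 921.9 FPKM without on 10 June, at 291.0 and 521.8 FPKM on 22 June, at 5.02 and 31.7 FPKM on 30 June, and finally at 0.338 and 0.231 FPKM on 6 July. GAZW02016077 hardly differed between 10 June (353.6 FPKM pollinated, 397.9 FPKM unpollinated) and 22 June (336.8 and 366.1 FPKM). It then stood at 2.32 and 25.9 FPKM on 30 June, and finally at 0.464 and 0.959 FPKM on 6 July.

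The lowest levels on 30 June, again by the mean of both libraries, were those of GAZW02022122, at 0.157 FPKM with pollen and 0.0943 FPKM without, and of GAZW02083281, at 0.0497 and 0.301 FPKM. GAZW02022122 stood at 181.3 and 182.5 FPKM on 10 June and at 53.6 and 11.7 FPKM on 22 June, so its unpollinated level was already low on the second date. GAZW02083281 stood at 181.3 and 189.0 FPKM on 10 June and at 120.1 and 41.5 FPKM on 22 June.

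Contigs with a small early step stood higher in the unpollinated library of 30 June. The step contains the 22 June level, and the unpollinated levels of 22 and 30 June correlated at r = 0.790 across the 59 contigs. The step therefore cannot be told apart from the 22 June level here. Across the 59 contigs, the step from 10 to 22 June in unpollinated megagametophytes correlated at r = -0.656 with the unpollinated level on 30 June. The same step in the pollinated libraries correlated with that unpollinated level at r = -0.556. Neither step uses a library of 30 June. The early steps in both states correlated at r = 0.876. These values are across contigs measured in the same pools, so they describe the group and carry no p-value. The members' levels in both states correlated at r = 0.965 on 10 June, r = 0.816 on 22 June and r = 0.658 on 30 June.

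In unpollinated megagametophytes, the 14 contigs at 1 FPKM or more in scales stood higher on 30 June than the 45 found in bracts only. Their median without pollen was 8.89 FPKM, with a range of 1.08 to 25.9 FPKM, against 4.03 FPKM and 0.0943 to 31.7 FPKM in the 45, so the ranges overlapped. With pollen the 30 June medians were 0.860 and 0.647 FPKM, both under 1 FPKM. On 22 June the unpollinated medians were 253.0 and 112.0 FPKM, and on 10 June they stood in the other order, at 359.4 and 473.4 FPKM. Among the 162 contigs under 1 FPKM in both cone tissues, the scale level correlated with the unpollinated 30 June level at r = 0.590 and the bract level at r = 0.152. Within the 59 the same values were r = 0.107 and r = -0.229, with the 3 contigs above 5 FPKM included.

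**Figure D4:**
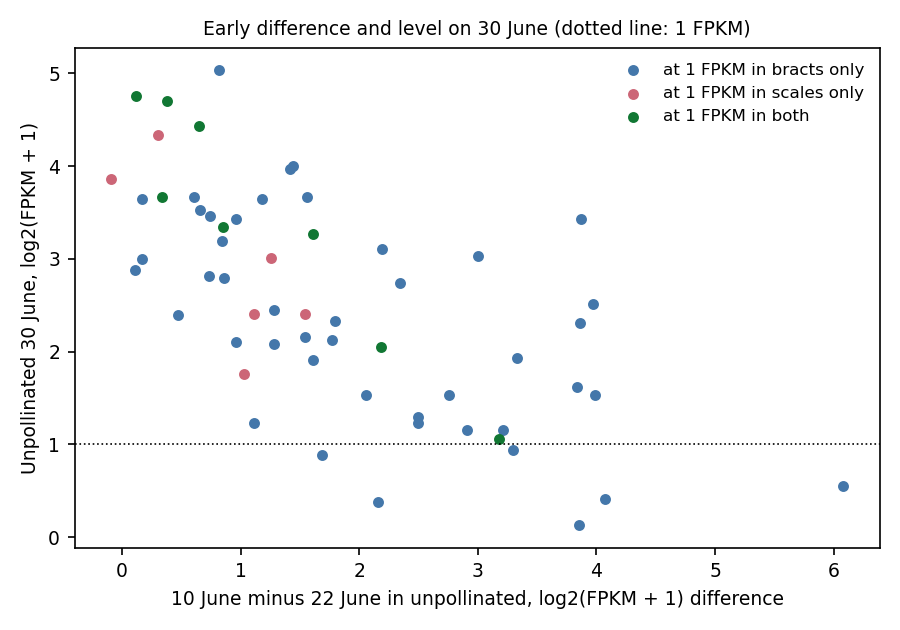
Level of the 59 contigs in unpollinated megagametophytes on 30 June, log2(FPKM + 1), against the 10 June minus 22 June difference in the same state (log2 units), coloured by the cone tissue in which they reached 1 FPKM. Points run from the upper left to the lower right (r = -0.656), and none of the 14 contigs at 1 FPKM or more in scales lies under the dotted line at 1 FPKM.

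Pollinated and unpollinated megagametophytes were set side by side at each date, with 1 library per state. The pollinated samples are labelled as holding the embryo, so a difference due to pollen and one due to embryo tissue cannot be told apart. On 10 June the median difference of pollinated minus unpollinated was -0.05 log2 units, and 22 of 59 contigs were higher in the pollinated library. None was 2-fold or more higher there and 1 (1.69%) was in the unpollinated library, against 6.7% and 8.18% of all contigs at 1 FPKM or more. Among the 801 contigs that reached 100 FPKM in both 10 June libraries, the shares were 0.749% and 0.375%. On 22 June the median difference was 0.85, and 56 of 59 contigs were higher in the pollinated library. This is 94.9% of the 59, against 40.8% of all 54889 contigs and 77.2% of the 801. The 2-fold limit was passed by 21 of the 59 on the pollinated side (35.6%) and by 1 on the unpollinated side (1.69%). The shares of all contigs at 1 FPKM or more were 7.55% and 5.65%.

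On 30 June the direction was the opposite one, with a median difference of -1.81 log2 units and 56 of 59 contigs higher in the unpollinated library. This is 94.9% of the 59, against 31.2% of all 54889 contigs and 76.2% of the 801. Of the 53 members that reached 1 FPKM in either library, 46 (86.8%) were 2-fold or more higher in the unpollinated one. None was in the pollinated one. The shares of all contigs were 6.09% toward unpollinated and 8.54% toward pollinated. In 38 contigs the unpollinated library alone was at 1 FPKM or more, in 15 both were, and in 6 neither was. The pollinated library alone was in 0, so no contig entered the 53 through the pollinated library only. Contigs higher in the pollinated library on 22 June and in the unpollinated library on 30 June numbered 53 of 59 (89.8%), against 16.1% of all contigs.

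This pattern was not limited to contigs with a cone level. Of the 162 contigs that met the same rule on dates and were under 1 FPKM in both cone tissues, 157 (96.9%) had the same directions on 22 and 30 June, and the 2-fold limit on 30 June was passed toward the unpollinated side by 105 of the 124 of them that reached 1 FPKM (84.7%). Of the 801 contigs that reached 100 FPKM in both 10 June libraries, 491 (61.3%) had the same directions. In the 801 the 2-fold limit was passed toward the pollinated side on 22 June by 136 of 801 contigs, and toward the unpollinated side on 30 June by 216 of 715 (30.2%). The 59 contigs were more abundant on 10 June, with medians of 412.0 and 447.8 FPKM against 218.0 and 204.1 FPKM in the 162. The unpollinated 30 June median was 4.46 FPKM in the 59 and 2.62 FPKM in the 162. The difference between these groups was not tested, since contigs of the same pools are not replicates.

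**Figure D5:**
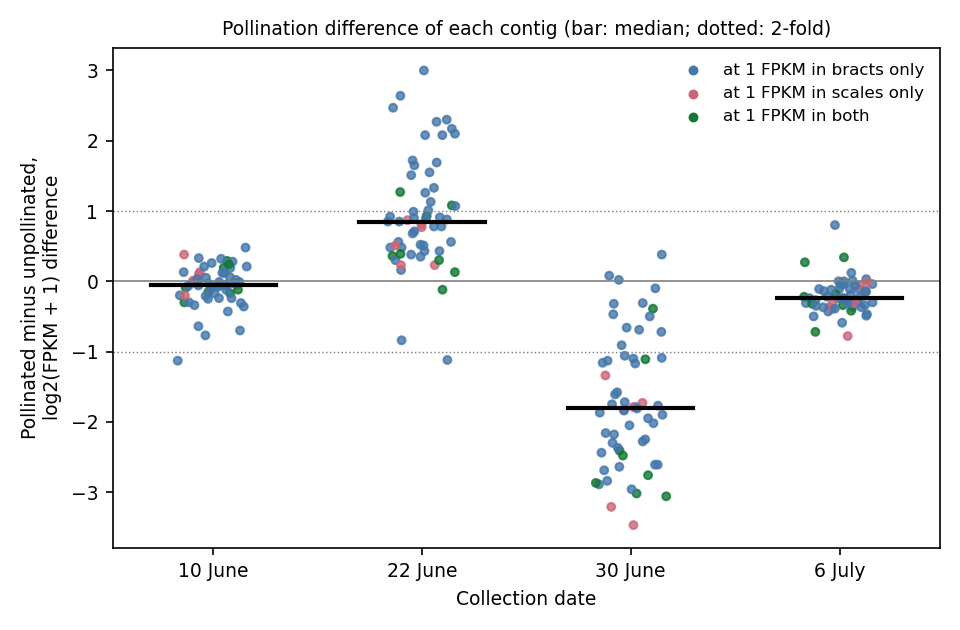
Pollinated minus unpollinated difference, log2(FPKM + 1), of each of the 59 contigs at each date, with the median as a bar and the 2-fold limits as dotted lines. The medians are -0.05, 0.85, -1.81 and -0.24 from 10 June to 6 July, and the points of 22 and 30 June lie mostly on opposite sides of 0.

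The widest gaps toward the pollinated side on 22 June were those of GAZW02069508, given above, and GAZW02001013. GAZW02001013 stood at 941.3 FPKM with pollen and 860.1 FPKM without on 10 June, at 336.8 and 53.2 FPKM on 22 June, at 0.283 and 1.89 FPKM on 30 June, and finally at 0.0570 and 0.301 FPKM on 6 July. The states were thus close on 10 June, and the higher one on 22 June was the lower one on 30 June.

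GAZW02019496 and GAZW02019494 had the widest gaps toward the unpollinated side on 22 June. GAZW02019496 stood at 133.4 FPKM with pollen and 293.1 FPKM without on 10 June, at 87.6 and 191.7 FPKM on 22 June, at 0.778 and 11.7 FPKM on 30 June, and finally at 0.0718 and 0.248 FPKM on 6 July. It was higher in the unpollinated library on every date and was the single member past the 2-fold limit on that side on 10 and 22 June. The numbers of these 2 contigs are 2 apart in the assembly, and related contigs could share reads.

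On 30 June the widest gaps toward the unpollinated side were those of GAZW02069610 and GAZW02026751. GAZW02069610 stood at 684.0 FPKM with pollen and 785.9 FPKM without on 10 June, at 748.6 and 638.1 FPKM on 22 June, at 0.815 and 19.1 FPKM on 30 June, and finally at 0.275 and 0.580 FPKM on 6 July. GAZW02026751 stood at 329.8 and 281.1 FPKM on 22 June and at 0.569 and 13.5 FPKM on 30 June. Neither had a wide early step, and both were at 1 FPKM or more in scales (1.2 and 1.08 FPKM) and under it in bracts (0.892 and 0.647 FPKM). On the pollinated side the widest gaps were small, 0.38 log2 units for GAZW02069508 and 0.08 for GAZW02022122, both under 1 FPKM in both libraries.

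The pollination difference over all 4 dates was tested with limma on 27065 contigs, with date as a block. The rule did not use this difference, but it limited the levels of 3 of the 4 dates and kept both 6 July levels under 1 FPKM, where the difference could only be small. The counts among the 59 are therefore given as descriptions beside those of the whole table, and nothing is read from them. None of the 59 contigs passed at a Benjamini-Hochberg adjusted p of 0.05, and 1 contig of the whole table did (0.00369%). At an unadjusted p under 0.05 there was 1 of the 59, against 1302 of all contigs tested (4.81%). That contig was GAZW02019496, with a difference of -1.33 ± 0.41 (SE) log2 units, the pollinated library being lower on 4 of 4 dates, and a limma adjusted p of 0.861 (0.588 to 0.999 over the alternatives). In the other direction the smallest p was that of GAZW02079727, at 0.30 ± 0.19 log2 units, higher in the pollinated library on 2 of 4 dates, with a limma adjusted p of 0.861 (0.775 to 0.999 over the alternatives). The median difference over the 59 was -0.30 log2 units, and it was 0.21 without both libraries of 30 June, -0.72 without both of 22 June and 0.01 with a pseudocount of 5 FPKM. A difference averaged over dates sets the opposite directions of 22 and 30 June against each other.

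A pollination difference that changes steadily with date was tested in the same 8 libraries, and the same limit holds, since 6 July is an end of the range of dates. In limma, 0 of the 59 and 0 of 27065 contigs (0%) passed, and at an unadjusted p under 0.05 there were 0 of the 59 and 1618 of all (5.98%). The fitted change over 26 days had a median of -0.97 log2 units in the 59 and 0.06 in all contigs. The smallest p among the 59 was that of GAZW02021425, at -1.55 ± 1.05 (SE) log2 units with a limma adjusted p of 0.888 (0.756 to 1 over the alternatives). In the other direction it was GAZW02079727, at 0.57 ± 0.49 log2 units with a limma adjusted p of 0.906 (0.798 to 1). Without both libraries of 10 June the median was -2.20 log2 units, without both of 6 July -2.05 and without both of 30 June -0.20, and no contig passed in these fits.

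Within 10 numbers of each other there were 6 groups that held 13 of the 59 contigs, and 46 contigs had no other member that near. Bract levels within a group differed by 0.07 to 0.26 log2 units and unpollinated 30 June levels by 0.10 to 2 log2 units. Over all 59 contigs the quartiles of the bract level were 1.10 and 1.43 FPKM, so close bract levels are not particular to these groups. The files do not say whether nearby numbers belong to 1 gene, so the 59 contigs may stand for fewer genes.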

How the data were processed

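The authors deposited 1 table of 54889 contigs in 10 libraries on a log scale, read here as log2(FPKM + 1). No source used here gives the base or offset. Per the labels' protocols, polyA RNA was sequenced as paired-end reads without strand information. Tools listed in the submitters' processing notes, with no role stated, include RSEM 1.2.12, Bowtie 1.0.1, R 3.1.0, Trim Galore 0.2, bedtools 2.17 and FastQC 0.10. Reads per library are unknown, so no counting error is given. Every contig reached at least 1.01 in some library.

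Levels were converted to FPKM. The pollination tests used limma 3.58.1 in R 4.3.3 (eBayes with an intensity trend, date as a block) on contigs at a mean of 1 FPKM or more over 8 libraries, 59 of 59 members included, with 3 residual degrees of freedom for the difference over dates and 2 for its change with date. The model code was tested on simulated data. Other values used Python 3.11.15, numpy 2.4.6, pandas 2.3.3 and matplotlib 3.10.9.

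The members, tests and naming rule were chosen with earlier results of these data known. At most 2 contigs per direction and comparison are named, those with the highest or lowest levels or the widest differences, and, in each limma test, the smallest p in each direction. GAZW02065753 is also named as the third above 5 FPKM in a cone tissue.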

Additional observations from a re-analysis of the deposited data

Results flagged for a closer look

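The pollination difference of the 59 contigs had opposite directions on neighbouring dates. The median of pollinated minus unpollinated was 0.85 log2 units on 22 June and -1.81 log2 units on 30 June. With 1 library per state and date, whether these values differ was not tested.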

How the results depend on the processing

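Among counts above 0 as reported, 26 of 48 alternative values stayed within 1.5 times. Counts of 0, the limma ones included, say nothing about stability. The cone minimum decided membership, which was 59 contigs as reported, 8 at 2 FPKM in a cone tissue, 1 at 10 FPKM, 14 with scales alone, and 7 after quantile normalization (the last 2 settings were chosen after seeing the data). The 1 contig at 10 FPKM was under 1 FPKM on 30 June in the pollinated library (1 of 1) and not in the unpollinated one (0 of 1).

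At 4-fold, the counts higher in unpollinated megagametophytes were 0 on 10 June and 0 on 22 June, against 1.28% and 0.904% of all contigs. On 30 June the 4-fold count was 24 (45.3% of those at 1 FPKM, against 1.52% of all contigs). The 4-fold count higher in pollinated ones on 22 June was 9 (15.3% against 1.71%), and scales and bracts had 0 and 1 (1.69% and 2.8% of all contigs). The 30 June count of 46 was 25 with a pseudocount of 5 FPKM (47.2% against 1.67%). Where 1 library had to reach 10 FPKM it was 15 of the 15 contigs that did, against 4.93%. The highest pollinated level of a member on 30 June was 5.02 FPKM. All 15 thus passed this limit through the unpollinated library, and nothing is read from their share. The bract count of 11 was 40 with a pseudocount of 0.1 FPKM (67.8% against 35.5%) and 1 with 5 FPKM (1.69% against 2.88%). It was 0 of the 1 contig that reached 10 FPKM, against 12.5%, and 3 after quantile normalization (27.3% against 15.3%). The scale count of 1 was 2 with 0.1 FPKM (3.39% against 10.6%) and 3 after quantile normalization (27.3% against 14.3%). Quantile normalization also gave 0 and 2 higher in unpollinated megagametophytes on 10 and 22 June, against 6.01% and 4.82% of all contigs. The cause was not tested, apart from the stricter limits, which can only lower a count.

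No paired analysis by replicate number was possible because the labels give none. The limma fits pair the states by date, as a block. Without it limma also gave 0 of the 59 for the change with date. Unknown depth limits what levels near 1 FPKM can show.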
